A study of Arabidopsis thaliana with 14 samples.

Results

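The comparison described here sets the brassinosteroid (BR) receptor mutant quad against the Col-0 wild type (WT) after watering had been stopped for 2 days. It rests on 2 of the 14 two-colour arrays of a time course that covered day 0 and days 2, 4 and 6 with or without watering, with 2 arrays per condition. Both arrays were chosen by their titles, and all loci on them were kept. Of 28327 loci with a probe, 22810 were tested, and these had passed a filter on dim signals that asked for both arrays of a condition to detect the locus in WT or in quad.

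The quad plants carried *bri1-301*, *brl1-1*, *brl3-1* and *bak1-3*, mutations in the receptors BRI1, BRL1 and BRL3 and in the coreceptor BAK1, and WT was Col-0 without them. The labels describe 28-day-old mature whole plants grown in soil under long days, whereas the methods speak of 3-week-old plants and of 5 rosettes pooled per replicate. On each array RNA of quad plants and RNA of WT plants, both without water for 2 days, were hybridised together. Replicate 1 carried quad in Cy5 and replicate 2 carried quad in Cy3, so replicate and dye orientation cannot be told apart. Values are log2 ratios of quad over WT, with the sign of replicate 2 turned. A gene was called where limma gave an adjusted p under 0.05 over all genes and a mean log2 ratio beyond 1.5 in either direction.

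BRs are steroid hormones that bind at the plasma membrane to BRI1 or to its close relatives BRL1 and BRL3, which act together with BAK1. Binding leads to the inactivation of the kinase BIN2, and the transcription factors BZR1 and BES1 then act in the nucleus. They activate genes of cell wall loosening and growth and repress the genes of BR synthesis, and in Arabidopsis the pathway also meets the responses to water deficit, cold and pathogens.

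The mutant differed from WT mainly by genes with less transcript. At day 2 of drought 204 genes were called, which is 0.894% of those tested, and 183 of them were lower and 21 higher in quad (0.802% and 0.0921%). By adjusted p alone 4022 genes differed (17.6%), 2712 lower and 1310 higher. The median log2 ratio was −1.90 over the genes called lower and 1.91 over those called higher, against −0.01 over all genes tested. Anthocyanin enzymes, dehydration proteins, root genes, iron uptake genes and morning clock genes were among the genes lower in quad, and BR synthesis and anther genes were among those higher. All 204 called genes had the same sign on both arrays. This says little about replicate agreement, because the call asked for a large mean ratio over these same arrays. Of the 204 genes, 179 were well above background in all 4 channels. Across all genes the ratios of both arrays correlated with r = 0.822, a description across genes that are not independent replicates, and their differences had an SD of 0.23 on the log2 scale.

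**Figure D1:**
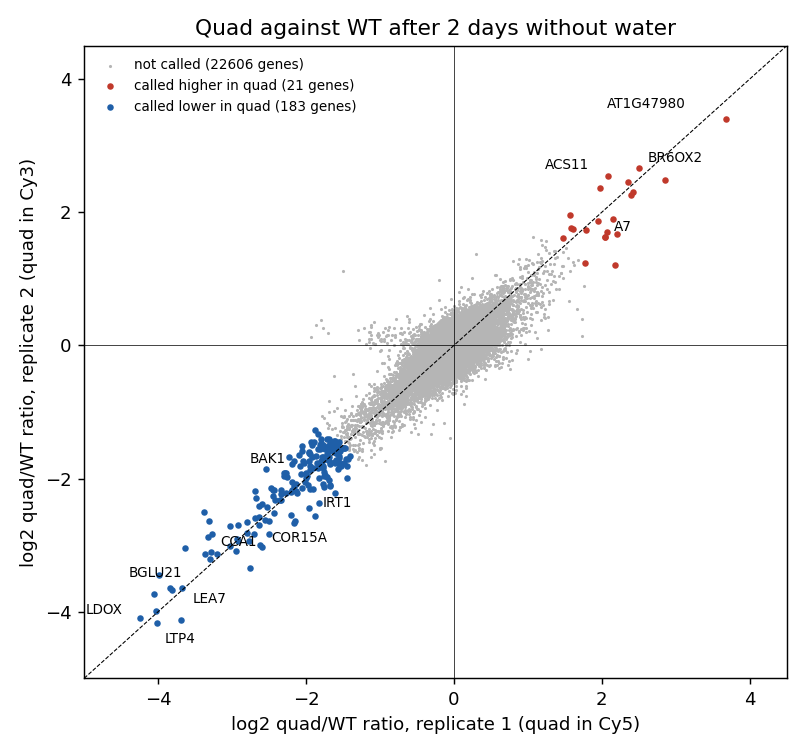
Log2 quad/WT ratio of each gene tested on replicate 1 (x axis) and replicate 2 (y axis) of day 2 drought, with the 183 genes called lower in blue and the 21 called higher in red, and the line of equal values dashed. The called genes lie near that line. Their shared sign on both arrays follows largely from the call, which asked for a large mean ratio over these arrays.

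The mutated genes themselves were read first. BAK1 had log2 ratios of −2.07 and −1.93 (SE 0.09, adjusted p = 1.2e-07) and BRL1 of −1.94 and −1.63 (mean −1.79, SE 0.22, adjusted p = 0.000155; −1.32 and not called with its probes averaged). Both were called lower, and both lay below 0 on all 12 other arrays too. BRL3 had a mean of −0.98 (adjusted p = 0.000505), with nearly equal values on both arrays, and did not reach the limit of fold. BRI1 had 0.45 and 0.79 (mean 0.62, adjusted p = 0.00981), so that the transcript of the mutated main receptor was not lower. For none of the 4 did the difference from watered plants of the same day pass the test, and these differences ranged from −0.30 to 0.20 with adjusted p from 0.559 to 0.973.

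Genes of BR synthesis were higher in quad. Of 9 measured, 4 were higher at adjusted p and none was lower, against 5.74% higher among all genes, and 1 was called, with a list median of 0.41. The called gene was BR6OX2, the oxidase of the last synthesis step, at 2.50 and 2.67 (mean 2.58, a 6.00-fold ratio, adjusted p = 5.34e-07). On the other 12 arrays BR6OX2 lay between 0.54 and 2.28, below both arrays of day 2 drought. DWF4, the C-22 hydroxylase, had a mean log2 ratio of 1.35 and CPD, another cytochrome P450 of the pathway, one of 1.15 (adjusted p = 3.37e-06 and 0.000181). BR6OX1 had 0.52. The remaining 5 genes lay between −0.15 and 0.41 without passing the test. Of the 5 genes of BR inactivation measured, 3 were lower at adjusted p, namely DOGT1, a glucosyltransferase (−0.72), BEN1 (−0.56) and UGT73C6 (−0.37).

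The signalling genes further down did not reach a call. Of 17 measured, 4 were higher and 3 lower at adjusted p, against 5.74% higher and 11.9% lower among all genes. BZR1 stood at 0.67, its relative BEH2 at 0.62, BES1 at 0.15 and BIN2 at 0.06, the last pair without passing the test. The BR-induced factors BEE1 (−1.08) and BEE3 (−0.72) were lower, while BEE2 was higher (0.71). Among 11 BR-responsive growth genes 8 were lower at adjusted p (median −0.53, 11.9% lower among all genes), including PHI-1 (−1.27), SAUR15 (−1.26), the wall enzyme TCH4 (−1.11) and the expansin EXPA5 (−0.81). Among 30 xyloglucan endotransglucosylase/hydrolases, enzymes that cut and rejoin wall xyloglucan, 16 were lower at adjusted p and 1 was higher (median −0.65). XTH20 (−2.10) and XTH3 were called, the latter not above background on either quad channel and thus given only as a bound (at least 3.59-fold lower).

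**Figure D2:**
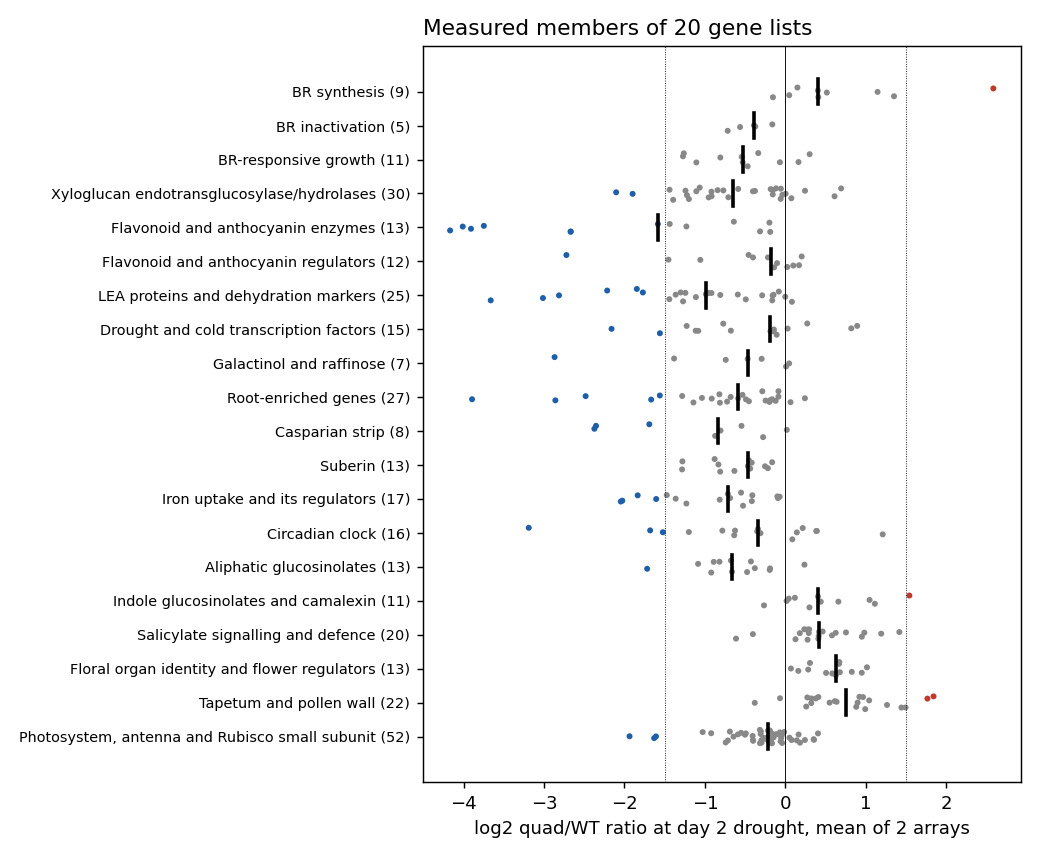
Mean log2 quad/WT ratio at day 2 drought (x axis) of each measured member of 20 gene lists, with the number measured in parentheses. Blue and red points were called lower and higher, grey points were not called, black bars mark list medians and dotted lines the limits at 1.5. The medians run from −1.59 for the flavonoid and anthocyanin enzymes to 0.76 for the tapetum and pollen wall genes.

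Anthocyanin synthesis held the gene with the lowest ratio of all, LDOX. Of 13 flavonoid and anthocyanin enzymes and carriers measured, 7 were called lower and 10 were lower at adjusted p, with none higher and a median of −1.59. This synthase, which forms the coloured anthocyanidins, had log2 ratios of −4.24 and −4.09 (mean −4.17, SE 0.27, a fold of 18.0, adjusted p = 9.33e-07). DFR, the reductase before it, had −4.03 and −3.99 (adjusted p = 5.94e-07). UF3GT, which adds a sugar to anthocyanins, had −3.68 and −4.13, and GSTF12, which is needed for their transport into the vacuole, had −3.85 and −3.65. All 4 lay below each of the 12 other arrays, whose lowest values were −2.21, −1.76, −2.18 and −2.09 in that order.

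The earlier enzymes of the pathway had ratios nearer to 0 than these 4. TT4, the chalcone synthase at its entry, had −2.50 and −2.83, the flavonoid 3′-hydroxylase TT7 had −2.64 and −2.70, and CHIL had −1.46 and −1.71. These were called as well, although CHIL was not with its probes averaged (−0.81) or without replicate 2 (−1.46), while UGT78D2 (−1.44), the chalcone isomerase TT5 (−1.23) and the flavonol synthase FLS1 (−0.64) passed the adjusted p alone. Outside the list, the UDP-glycosyltransferase AT4G14090 (−2.47) and the malonyltransferase gene AT5MAT (−2.42) were called lower. AT4G22870, a close copy of LDOX whose probe could read LDOX transcript, stood at −1.95.

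Among 12 regulators of the pathway the call was limited to PAP1 (AT1G56650), a MYB activator of anthocyanin genes, at −2.79 and −2.65 (adjusted p = 5.82e-08). Its bHLH partner TT8 (−1.45) and the related MYB90 (−1.06) were lower at adjusted p. TTG1 (0.17), EGL3 (0.20), GL3 (−0.10) and the flavonol regulator MYB12 (0.10) did not pass the test. The list had 5 of 12 members lower at adjusted p, none higher and a median of −0.18.

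The signal of each genotype shows where the ratio came from. LDOX had a normalised log2 signal of 12.11 and 12.01 in WT and of 7.86 and 7.92 in quad at day 2 of drought, against means of 9.34 in WT and 9.31 in quad with watering. DFR followed the same course, with 11.66 and 11.62 in WT and 7.63 on both quad channels under drought, against 8.54 and 8.50 with watering. The WT signal was thus higher and the quad signal lower under drought than in watered plants. These levels were set across arrays and were not tested.

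**Figure D3:**
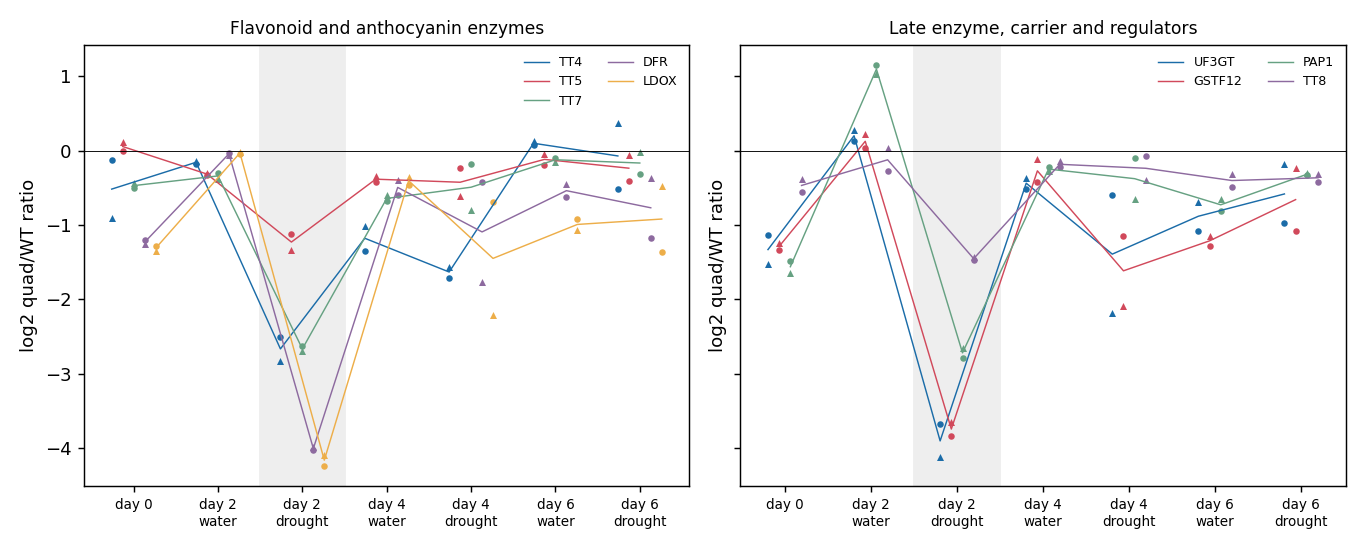
Log2 quad/WT ratio (y axis) of 9 genes of anthocyanin synthesis in the 7 conditions (x axis), with circles for replicate 1, triangles for replicate 2 and lines through the means; day 2 drought is shaded. All 9 genes have their lowest mean at day 2 of drought, where LDOX reaches −4.17 and PAP1 −2.72.

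Genes of the dehydration response were lower in quad than in WT. Of 25 late embryogenesis abundant (LEA) proteins and dehydration markers, 6 were called lower and 16 were lower at adjusted p, with none higher and a median of −0.99. LEA7 had −3.68 and −3.65 (adjusted p = 3.35e-09), the dehydrin LTI30 had −2.94 and −3.09, and COR15A, a chloroplast protein that protects membranes in cold and drought, had −2.60 and −3.03. LTI65 (−2.21), RD20 (−1.85) and LEA4-5 (−1.77) were also called. ERD10 (−1.44), RD22 (−1.30), LTI78 (−0.95) and KIN1, dim on both quad channels and at least 2.56-fold lower, passed the adjusted p alone, and the ABA marker RAB18 had −0.16 with an adjusted p of 0.61. The called genes were therefore part of the list and not the whole of it. Before water was withheld, at day 0, the list median was already −1.10. Against day 0 the ratio was called lower for 1 of the 25 members (0.697% of all genes).

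Related genes differed in the same direction. The lipid transfer protein gene LTP4 had −4.01 and −4.18 (adjusted p = 3.26e-08) and LTP3, a near copy whose probe could share its signal, had −2.19 and −2.17. GolS3, a galactinol synthase of the cold response, stood at −2.87 and was the called member among 7 galactinol and raffinose genes, of which 4 were lower at adjusted p. Among 15 drought and cold transcription factors DDF1 (−2.16) and CBF2 (−1.56, but −1.48 with median centring) were called lower, and HB-7 (−1.23), HB-12 (−1.11) and DREB1A (−1.08) were lower at adjusted p. ATAF1 (0.82) and NAC3 (0.89) were higher at adjusted p, and RD26 (0.27) and DREB2A (−0.15) did not pass the test. At day 0 DDF1 had −2.30 and −2.56 and GolS3 −2.42 and −2.32, while LTP4 had −1.75 and −1.93 and CBF2 −0.78 and −0.76.

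Genes known from roots formed a further group. Of 27 root-enriched genes 5 were called lower and 17 were lower at adjusted p, with none higher and a median of −0.59. BGLU21, a root β-glucosidase, had −4.06 and −3.73 (adjusted p = 5.46e-08) and BGLU22, its close copy, had −2.68 and −2.29. The vacuolar aquaporin TIP2;3 had −2.78 and −2.94 and the nitrate transporter NRT2:1 had −1.59 and −1.75. On the 12 other arrays TIP2;3 ran from 0.02 to 2.09 and NRT2:1 from 0.24 to 1.66, so both genes were lower in quad at day 2 of drought and on no other array. The root hair expansin EXPA7, dim on both quad channels and at least 2.80-fold lower, was the fifth, and it was not called without replicate 1 (−1.41).

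The endodermal genes of the Casparian strip, the wall band that seals the root stele, were lower in 6 of 8 cases at adjusted p, with a median of −0.84. CASP1 had −2.42 and −2.33 and the peroxidase PER64 had −2.44 and −2.26, and both were called. Across conditions they did not move together, since at day 4 with watering PER64 had −3.53 and −3.32 and CASP1 had 1.11 and 1.14. ESB1 (−0.87), MYB36 (−0.81) and CASP2, dim on both quad channels and at least 1.44-fold lower, passed the adjusted p alone. Of 13 suberin genes 10 were lower at adjusted p without a call (median −0.47), led by ABCG6 and CYP86A1 at −1.28 each.

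The descriptions of the called genes were counted as well, without a share over all genes to set beside them. They placed 10 of the called genes among peroxidases, all lower, with AT4G30170 at −3.99 and −3.45 and AT5G17820 at −3.38 and −2.50. Class III peroxidases matched by locus alone, a choice made after seeing the data, had 8 of 30 called lower, 19 lower and 2 higher at adjusted p, and a median of −1.06. Lipid transfer or 2S albumin-like proteins made up 13 called genes, 12 of them lower and A7 higher. In smaller groups, 4 arabinogalactan proteins and 3 mannose-binding lectins were called lower, and defensin-like proteins were split into 3 lower and 3 higher.

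These arrays also carried values that moved with the root genes. All 27 root-enriched genes were well above background on both WT channels and 18 were on both quad channels, although the methods name rosettes, and their summed signal was 73566 and 66482 in WT against 59528 and 57679 in quad. The Casparian strip genes summed to 3038 and 3136 in WT and to 1351 and 1491 in quad. All 52 photosystem, antenna and Rubisco genes were well above background in both genotypes. Their summed signal was lower in quad too, with 910089 and 982512 in WT against 839450 and 739001 in quad. In bulk tissue fewer root cells and less RNA per root cell cannot be told apart, and the part that the share of root in the samples had in the results was not tested.

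Iron uptake genes were lower in quad at day 2 of drought, and IRT1 and FRO2, both higher in quad on every other array, turned their direction there. Of 17 measured, 4 were called lower, 12 were lower at adjusted p and none was higher, with a median of −0.72. IRT1, the root Fe(II) transporter, had −1.94 and −2.15 (adjusted p = 4.95e-06) and ranged from 0.23 to 3.61 on the 12 other arrays; with its probes averaged it had −1.19 and was not called. FRO2, the ferric chelate reductase, had −1.84 on both arrays and ranged from 0.15 to 3.02 elsewhere. The transcription factors bHLH38 (−2.01 and −2.05) and bHLH39 (−1.60 and −1.62), which are induced by iron shortage, were called too. BHLH100 (−1.23) and BHLH101 (−0.82) passed the adjusted p alone, while PYE (−0.07) and BTS (−0.41) did not pass it.

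Both morning genes of the circadian clock were lower in quad. CCA1 had −3.28 and −3.10 (mean −3.19, adjusted p = 2.48e-07) and LHY, its close homologue, had −1.81 and −1.55, although LHY was not called with its probes averaged (−0.75). CCA1 lay lower than on any other array, though replicate 1 of day 6 drought came close at −3.09. CDF1 (AT5G62430), a repressor of flowering, was the third called member at −1.52, just past the limit, and was called neither with median centring (−1.45) nor without replicate 2. Of 16 clock genes 8 were lower and 2 higher at adjusted p (median −0.35), the latter being BOA, an evening gene of the clock (1.21), and ELF3 (0.39). The evening genes TOC1 (0.22), GI (−0.35) and ELF4 (0.38) did not pass the test. The time of day at which plants were collected is not given in the sources used here.

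**Figure D4:**
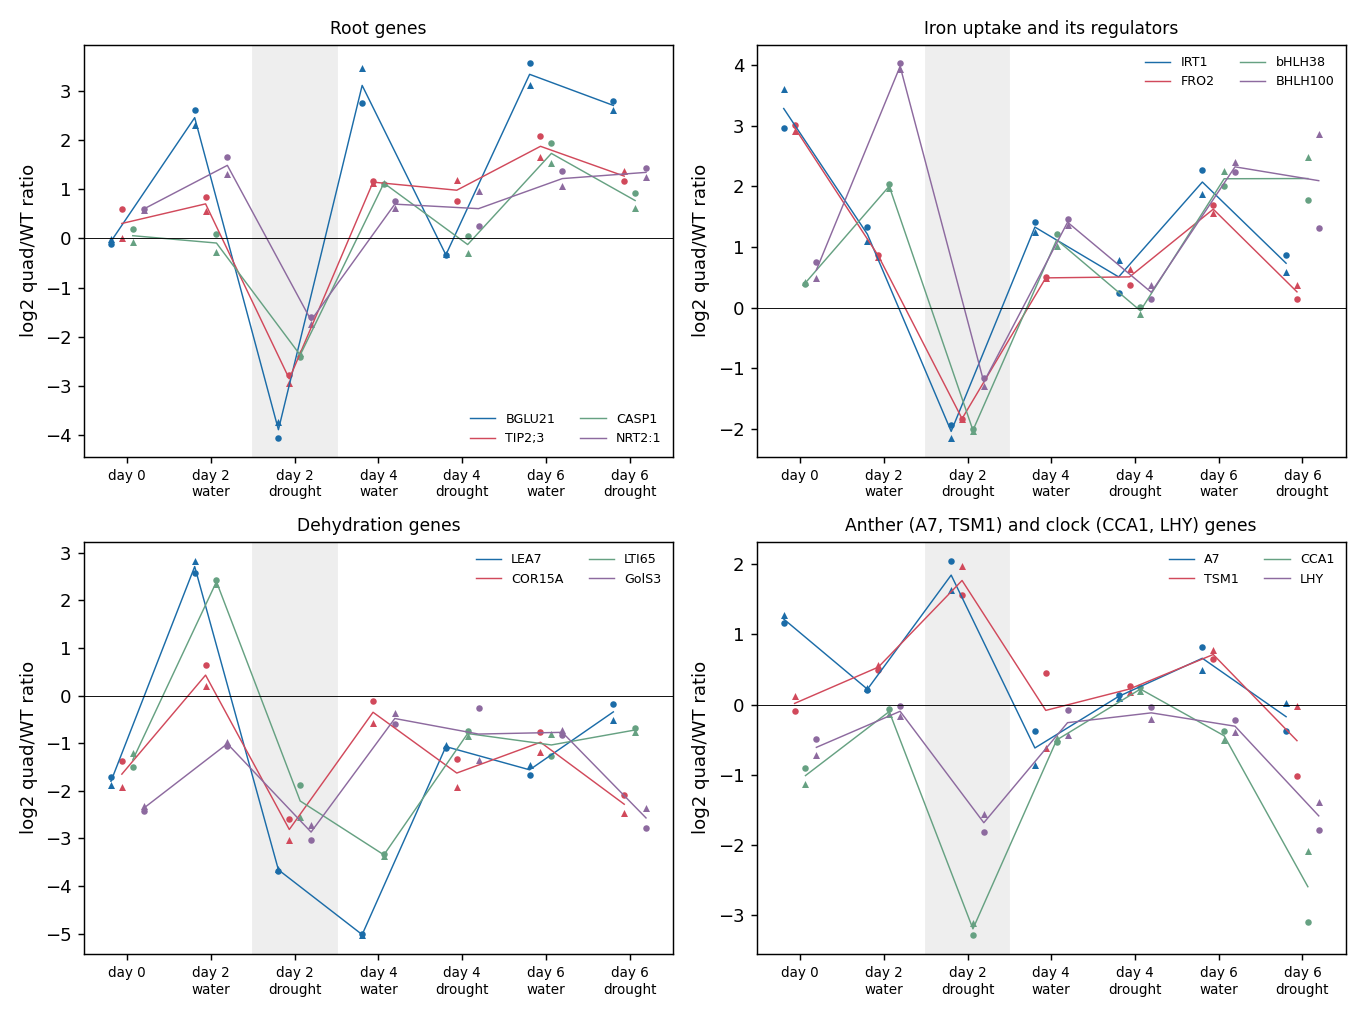
Log2 quad/WT ratio (y axes) of 16 genes in the 7 conditions (x axes), in panels for root, iron uptake, dehydration, and anther and clock genes, with circles for replicate 1, triangles for replicate 2 and lines through the means; day 2 drought is shaded. BGLU21 falls to −3.89 and IRT1 to −2.05 at day 2 of drought between higher values, whereas CCA1 is also low at day 6 of drought.

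In several other lists most members did not pass the call, and their counts are read against the 11.9% lower and 5.74% higher at adjusted p among all genes. Of 52 photosystem, antenna and Rubisco genes 3 were called lower, the antenna genes LHCB2.1 (−1.94), LHCB2.3 (−1.63) and CAB2 (−1.61), and 16 were lower and 1 higher at adjusted p (median −0.22). With median centring LHCB2.1 and LHCB2.3 were not called (adjusted p = 0.0992 and 0.0708), nor was LHCB2.3 without replicate 2 (−1.49). Of 13 genes of aliphatic glucosinolate synthesis 8 were lower at adjusted p (median −0.66), and IMS2 was called at −1.72. Of 33 aquaporins 13 were lower at adjusted p and TIP2;3 and NLM1 (−1.56) were called. Of 70 SAUR genes, small auxin-induced transcripts, 27 were lower and 5 higher at adjusted p with 3 calls between −1.57 and −1.53, each of which was lost when 1 array was left out (SAUR9 without replicate 1, SAUR75 and AT1G29430 without replicate 2).

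Of the called genes outside these lists, PDC1, ADH1 and SUS4 were chosen after their values were seen. The pyruvate decarboxylase gene PDC1 (AT4G33070) had −3.82 and −3.68 (adjusted p = 8.31e-08), ADH1, the alcohol dehydrogenase, had −2.33 and −2.23, and the sucrose synthase SUS4 had −2.27 and −2.21. For SUS4 the 12 other arrays ran from −0.59 to 0.29 and did not overlap with these values. For ADH1 they ran from −1.37 to 0.88.

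Among the 21 genes higher in quad the largest ratio was that of AT1G47980. This gene, annotated as a desiccation-like protein, had 3.68 and 3.40 (mean 3.54, a fold of 11.7, adjusted p = 1.2e-07), against −1.56 to 2.49 on the 12 other arrays. The extensin family gene AT3G16670 had 2.86 and 2.48, and its relative AT3G16660 had 1.95 and 1.87. AT3G63095 had 2.40 and 2.26, and the ethylene synthesis gene ACS11 had 2.09 and 2.55. ACS11 also had 2.28 and 2.55 in watered plants. The LEA gene M17, known from seeds, stood at 1.95 (1.35 and not called with its probes averaged) and the cupin AT2G28680 at 2.17. The near identical defensin-like genes AT3G59930 (2.41) and AT5G33355 (2.37) may share a probe signal, and neither was called without either array (adjusted p from 0.056 to 0.1).

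Part of the tapetum and floral organ genes were higher, whereas the genes of the pollen coat and mature pollen that passed the test went in both directions. Of 22 tapetum and pollen wall genes, 14 were higher at adjusted p and none was lower, with a median of 0.76 against −0.01 over all genes. A7, a lipid transfer-like protein of the tapetum, had 2.05 and 1.64, and the methyltransferase TSM1 had 1.57 and 1.96, and both were called. KCS15 (1.49), SHT (1.44), ATA1 (1.26) and the regulator AMS (0.92) passed the adjusted p. Among 13 floral organ identity genes 10 were higher at adjusted p without a call (median 0.63), including SEP3 (1.01), AP1 (0.95), SEP2 (0.83) and AP3 (0.68). The floral genes summed to a signal of 5023 and 6096 in WT and 9947 and 9054 in quad, and the tapetum genes to 5017 and 4640 against 8210 and 7655. Of 9 genes of the pollen coat and mature pollen 1 was higher and 2 were lower at adjusted p without a call, with a median of −0.16, which turned to 0.022 with the processed signals. Among all genes 5.74% were higher and 11.9% lower at adjusted p. GRP19, a glycine-rich protein of the pollen coat, had −1.30 and −1.03, and the list summed to 2354 and 3087 in WT and to 1742 and 2234 in quad. The part that the share or stage of flowers had in these values was not tested.

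The defence and jasmonate lists together held genes of both directions. PAD3, which makes camalexin, was called at 1.47 and 1.61, though not without replicate 2, and 5 of 11 genes of indole glucosinolates and camalexin were higher at adjusted p (median 0.41). Among 22 genes of jasmonate synthesis and output 2 were higher and 7 lower at adjusted p, with a median of −0.15. TAT3, a tyrosine aminotransferase of the jasmonate response, had 1.78 and 1.73 and was called higher, whereas the acetyltransferase gene NATA1 (−2.19 and −2.06) and the storage protein gene VSP2 (−1.68 and −2.12) were called lower. VSP2 was not called with median centring (adjusted p = 0.0969) or with its probes averaged (−0.89). Among 20 genes of salicylate signalling and defence 8 were higher and 1 lower at adjusted p, without a call and with a median of 0.41. PR5 had 1.42 and DMR6 1.19, and FMO1, dim on both WT channels, was at least 1.97-fold higher, whereas the marker PR1 had −0.61 with an adjusted p of 0.211.

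Some genes were detected in only 1 genotype, so that only a bound of the fold can be given. It sets the brighter mean against the dim signal of the gene or the lowest signal above background, whichever was higher. That lowest signal was the smallest of any detected probe in the channel, so the bounds are not strict. The phosphoglycerate mutase-like gene AT5G04120 was at least 9.5-fold lower in quad, the peroxidase AT4G26010 at least 7.44-fold, AT5G46890 at least 4.9-fold, RHS13, a root hair gene, at least 4.21-fold and XTH3 at least 3.59-fold (adjusted p between 1.2e-07 and 2.98e-05). In the other direction AT5G13380 was at least 2.85-fold higher, AT1G20150 at least 2.64-fold, PUP6 at least 2.39-fold, AT2G41415 at least 2.26-fold and FMO1 at least 1.97-fold (adjusted p between 8.05e-06 and 0.00144). Of the genes called lower 14 were not well above background on any quad channel, and of those called higher 1 was not on any WT channel. Each channel was set against the other after normalisation, and the bounds are open to dye bias only as far as the swap does not balance it.

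The same comparison in watered plants of day 2 asks which ratios differed between drought and watering on that day. It does not show which depend on watering in general, because ratios also varied among the watered conditions. The quad/WT ratio differed between day 2 drought and day 2 water for 619 genes (2.71%), lower under drought for 579 (2.54%) and higher for 40 (0.175%). Across genes the mean ratios of both conditions, which share no samples, had r = 0.01, whereas r was 0.430 with day 4 drought, 0.379 with day 0 and 0.355 with day 6 drought. Of the 204 genes called at day 2 drought, 155 (76.0%) were among these 619, and they made up 25.0% of the latter. The same 2 arrays enter the call and each difference from another condition, so such overlaps follow in part from the choice of genes. In watered plants of that day 33 of the 204 were called in the opposite direction and 14 in the same.

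Among the genes of large difference some were higher in quad than in WT with watering on day 2 and lower under drought that day. SAG12, a senescence protease gene chosen after its values were seen, had 6.27 and 6.23 with watering and −2.12 and −2.21 without (difference −8.41, adjusted p = 1.16e-10), but it was not well above background in watered WT, so that its ratio there is not measured on both sides. AT2G37870, a lipid transfer-like protein, had log2 ratios of 4.59 and 4.61 with watering and of −3.37 and −3.13 without (difference −7.85, adjusted p = 1.16e-10). LTP4 went from 3.01 and 2.82 to −4.01 and −4.18 (difference −7.01), and LEA7 from 2.59 and 2.84 to −3.68 and −3.65 (difference −6.37). On all arrays of day 0 and of days 4 and 6 with watering AT2G37870, LTP4 and LEA7 were below 0, and SAG12 was above it. At day 4 with watering LEA7 had −5.01 and −5.03 and LTP4 had −3.38 and −3.72. In WT the LTP4 signal was 13.01 and 13.02 under drought against a mean of 11.18 with watering, and in quad it had a mean of 8.93 against 14.10. LDOX had −0.04 and −0.02 with watering, so that its difference of −4.14 came from the ratio under drought.

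Among the lists, the iron uptake genes had the largest median difference of those described, −2.52, with 12 of 17 called lower, and BHLH100 went from 4.03 and 3.94 to −1.17 and −1.29. The anthocyanin enzymes had −1.49, the dehydration list −1.13 and the root-enriched list −0.94, against −0.03 over all genes. The dehydration list had a median ratio of 0.29 at day 2 with watering. It had −1.10 at day 0, −0.51 at day 4 with watering and −0.76 at day 6 with watering. The salicylate list had a median ratio of 1.80 with watering and of 0.41 under drought. At adjusted p 19 of its 20 genes had a lower ratio under drought, against 15.1% of all genes, and 8 were called. Its median was 0.11 at day 0, 0.10 at day 4 with watering and 0.51 at day 6 with watering. BR6OX2, at 1.68 and 1.79 with watering, had a difference of 0.85 (adjusted p = 0.0141) and was not called.

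Slides held several conditions, and the difference between drought and watering could be read within each of 2 slides. AT2G37870 differed by −7.96 within the first slide and by −7.75 within the third, LDOX by −4.20 and −4.07, IRT1 by −3.26 and −3.25, and CCA1 by −3.21 and −2.97. AT1G47980 differed by 3.85 and 2.80. Slide and replicate run together here, because each of these slides holds 1 replicate of both conditions.

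**Figure D5:**
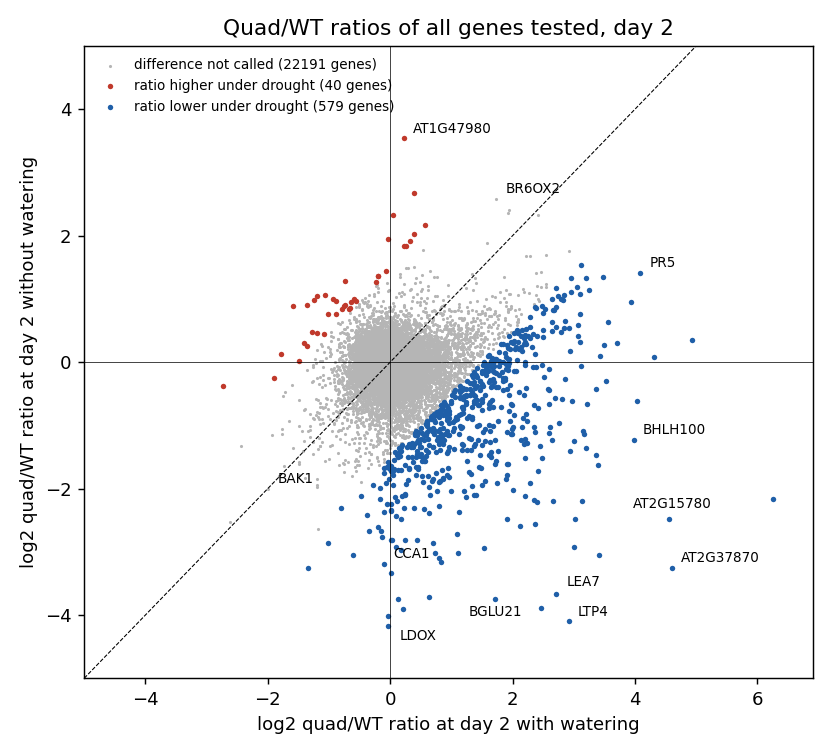
Mean log2 quad/WT ratio of each gene tested at day 2 with watering (x axis) and without (y axis), with the 579 genes whose ratio was called lower under drought in blue and the 40 called higher in red; the dashed line marks equal ratios. BAK1 lies on the line, LDOX below it near 0 on the x axis, and LTP4 and AT2G37870 far to its lower right.

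At day 0 water had not yet been withheld. The difference from day 0 was called for 251 genes (1.1%), 159 lower (0.697%) and 92 higher (0.403%), and included 111 of the 204 (54.4%). FRO2 went from 2.97 at day 0 to −1.84 (difference −4.81) and BGLU21 from −0.06 to −3.89 (difference −3.83). Among the higher differences the jasmonate genes LOX3, TPS04 and CYP94B1 were near 0 at day 2 of drought (−0.10, −0.02 and −0.10) and far below it at day 0 (−3.09, −3.32 and −3.41). TAT3 went from −1.94 to 1.76.

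Against the mean of the 6 other conditions the ratio differed for 232 genes (1.02%), lower for 224 (0.982%) and higher for 8 (0.0351%). They included 134 of the 204 called genes, which is 65.7% of those and 57.8% of the 232. The anthocyanin enzymes had 7 members among them (median difference −1.59), the iron uptake genes 9 (−1.79), the root-enriched genes 8 (−0.88), the class III peroxidases by locus 15 and the dehydration list 3 (−0.56). BGLU21 had a difference of −5.76, with the 12 other arrays between −0.35 and 3.56. CASP1 differed by −2.95 and PAP1 by −2.37 (adjusted p = 8.79e-08 and 1.51e-07). LTI65, at −1.40, and LEA4-5, at −0.71, were not called here, since both were also lower in quad on most other arrays.

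Most of the 204 genes did not reach the call in the same direction in another condition. In no other condition were 127 of them called in that direction, and 2 were called in all 7. A gene without a call elsewhere can still differ there, as SAUR75 with −0.98 and −1.36 at day 0. The counts of all genes called in the other conditions are not given here, so these numbers have no share beside them. The largest counts in the same direction were 37 at day 6 drought and 34 at day 0, and at day 4 drought 24 genes were called in the same direction and 1 in the opposite. Both arrays of day 2 drought lay outside the range of all 12 others for 142 of the 204 genes, against 1952 of all genes tested (8.57%). The 204 were chosen for large ratios on these same 2 arrays, so a higher share follows in part from that choice.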

How the data were processed

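Each of the 14 arrays was an Agilent two-colour array read with Feature Extraction 10.5.1.1, per the file headers. The authors deposited the scanner intensity of both dyes for 45210 spots (1417 of them controls) and a table of normalised log2 ratios (Cy5 over Cy3), and the log10 ratio and processed signals of Feature Extraction stand in the deposited scanner files. The analysis started from the median intensities. Background was corrected with normexp (mle, offset 50), loess (span 0.3) was run within arrays and Aquantile between arrays in limma 3.58.1 under R 4.3.3. Ratios were turned to quad over WT by the dyes in the labels. Of 43643 probes 36953 carried a locus, the probe of highest mean intensity stood for a locus, outlier spots were left out, and 5517 loci not well above background on both arrays of either genotype in any condition were removed. Symbols came from the RefSeq table, which held 27785 of the 28327 loci.

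All 14 arrays were fitted with 1 coefficient per condition and a shared spread (lmFit and eBayes, 7 residual and 4.81 prior degrees of freedom). Day 2 drought was tested against 0, against day 2 water, against day 0 and against the mean of the other conditions, with Benjamini-Hochberg adjustment over all genes. The replicates are biological by the series' design text, and their number (2 per condition) limits the precision. A spot not well above background has only a bound.

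The members and the 51 gene lists were chosen with earlier results of these data known, and 42 of 575 list entries whose symbol could not be matched to a locus were left out. Lists are described by counts and medians without a set test. Genes are named by a rule: the receptors, the 10 largest called changes in each direction with 1 sign on both arrays and signal well above background in all 4 channels, the leading called members of each list, whole lists of up to 12 genes, the 5 largest bounds in each direction and, for each difference, the 4 largest called in each direction. The last were taken only from genes well above background in every channel concerned and with 1 sign in every pairing of the arrays compared. For the difference from the mean of the others, both arrays had to lie on 1 side of all 12 others instead. A larger difference with a dim channel is therefore not among them, as for SAG12, IRT1 or, against the mean of the others, BGLU21. Other named genes, such as TT4, ADH1 and SUS4, were chosen after their values were seen. The script was tested on simulated ratios. Alternatives covered background correction, signal, normalisation, filters, probes, thresholds, slide, replicate block and leaving out arrays. The authors' tables of their own comparisons, which hold fold changes and p-values, were not used, and promoter sequences were not analysed here. A further called gene is not reported here.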

Additional observations from a re-analysis of the deposited data

Results flagged for a closer look

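The results in this part are differences in the quad/WT log2 ratio between day 2 drought and another condition, tested in limma as contrasts of 1 fit, each called at an adjusted p under 0.05 and beyond 1.5. Such a difference was called for 619 genes against day 2 water, for 251 against day 0 and for 232 against the mean of the other conditions. The genes given are the 4 with the largest difference in each direction among called genes that were well above background in every channel concerned and had the same sign in every pairing of the arrays, so genes dim in some channel can have larger differences.

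Against day 2 water, the ratio was higher under drought for AT1G47980 (3.32), AT3G07450 (2.48), AT3G63095 (2.28) and AT3G16670 (2.28). It was lower for AT2G37870 (−7.85), the cupredoxin AT2G15780 (−7.04), LTP4 (−7.01) and AT4G01985 (−6.46).

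Against day 0, the ratio was higher for TAT3 (3.69), CYP94B1 (3.31), TPS04 (3.30) and LOX3 (2.997), all of which act in or respond to jasmonate. It was lower for FRO2 (−4.81), the peroxidases AT4G30170 (−3.83) and AT5G17820 (−3.75) and for BGLU21 (−3.83).

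Against the mean of the other conditions, with both arrays on the same side of all 12 others, the ratio was higher for AT1G47980 (3.14), AT3G63095 (2.04), ENH1 (1.62) and M17 (1.57). It was lower for AT5G17820 (−4.57), BGLU22 (−4.14), AT4G33070 (−3.81) and the thioredoxin gene TH8 (−3.61).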

How the results depend on the processing

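The counts depended on how dim signals and the threshold were treated. In the order day 2 drought, minus day 2 water, minus day 0 and minus the mean of the others, they were 204, 619, 251 and 232 as reported, 482, 1256, 507 and 577 with a normexp offset of 0, 798, 1608, 684 and 958 with the signals processed by Feature Extraction, 4022, 4819, 1741 and 2444 by adjusted p alone, and 605, 1481, 610 and 523 with a log2 limit of 1. With the processed signals 202 genes were higher and 596 lower at day 2 drought (21 and 183 as reported), and 252 higher and 706 lower against the mean of the others (8 and 224). By adjusted p alone the splits were 1310 and 2712, and 636 and 1808. All 204 genes were among those called with either of these signals. All other settings kept the counts within 1.5 times. With the replicate block they were 204, 620, 259 and 234, and the replicate differences of pairs of conditions correlated between 0.00522 and 0.634. The correlation was over 0.1 in 19 of 21 pairs but not in every pair, and replicate number is also dye orientation, so the numbers were not taken to pair the samples. With slides as a block (consensus correlation 0.400) the counts were 216, 620, 257 and 238. Leaving out 1 array gave 204 to 224, 590 to 676, 231 to 251 and 226 to 236, with the lone array assumed to vary like the others. No named gene changed sign in a setting if it passed its threshold there or as reported (the call for called genes, adjusted p for others). Of the values 6369 were the same, 261 weaker and 55 stronger, and 148 of the 204 genes stayed called in every setting run. Sign changes of genes passing neither way count as the same, as for SERK1, with −0.0128 on replicate 1 and 0.226 on replicate 2. Of the list medians 670 were the same, 139 moved and 7 reversed: gibberellin genes (0.0132) at −0.0108 without background correction and at −0.0611 and −0.0546 without replicate 1 or 2 of day 2 drought, pollen coat genes (−0.16) at 0.022 with processed signals, and seed maturation genes (−0.0798) at 0.057 with processed signals, at 0.83 with the stricter filter and at 0.0158 without replicate 1 of day 2 drought. Without replicate 1 of day 4 drought the gibberellin and seed maturation medians stayed at 0.0132 and −0.0798. A median counted as reversed only where its size as reported was beyond the SD of its values on both arrays. Other medians changed sign without being counted, as for ABA signalling (−0.106 to 0.0474) and the JAZ repressors (−0.0288 to 0.0526). The causes were not tested. The planned search of promoter motifs was not run.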
